A study of Mus musculus with 12 samples.

Results

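The 4 arrays of batch 2 were compared with the 4 arrays of batch 1, which together make up 8 of the 12 Affymetrix mouse arrays in a series on regulatory T cells (Tregs), the CD4 T cells that restrain other immune cells. The arrays were chosen by the replicate number in their titles, which equals the batch named in the labels. Each batch held 1 array each of wild type (WT), Ebi3 -/-, Il10 -/- and Ebi3 -/- Il10 -/- (double knockout) Tregs, so the batches were compared within genotype. Il10 encodes the inhibitory cytokine IL-10, and Ebi3 a subunit of the heterodimeric cytokines IL-35 and IL-27. Per the labels, the natural Tregs of all groups were purified by fluorescence-activated cell sorting, were left untreated and were used fresh, and 1 µg of column-purified RNA was labelled with biotin by a 2-cycle amplification. The 4 arrays of batch 3, of the same genotypes, share the estimate of the spread, and their values are given beside the comparison. Strain, sex, age and the targeted alleles are not among the labels. The labels also do not say what the arrays of a batch share (a sort, an extraction or a hybridisation) or whether batches are separate animals, so p-values measure only the spread between these arrays.

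Amplification of this kind copies messenger RNA from a primer on its poly-A tail, so RNA that is broken, or copied only in part, is read mainly by probes near its 3′ end. The array carries 3′ and 5′ probe sets for beta-actin, GAPDH and 18S ribosomal RNA. It also carries them for bacterial transcripts with a poly-A tail that are added to the sample before labelling (dap, lys, phe and thr), and for transcripts that are added to the hybridisation already labelled (bioB, bioC, bioD and cre). Immediate-early genes are transcribed within minutes of a stimulus and need no new protein. They encode transcription factors such as Fos, Jun and Egr1 and feedback inhibitors such as the dual-specificity phosphatases, and tissue dissociation and cell sorting are known to induce them, as they are known to induce heat shock genes.

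Of 45101 probe sets, 31235 were tested after control probe sets and dim ones were left out, and they covered 13899 gene symbols. Values are MAS5 signals, differences are batch 2 minus batch 1 on the log2 scale of signal + 20, and adjusted p-values are limma's with Benjamini-Hochberg adjustment over all tested probe sets, with 0.05 as the threshold for a call. The median signal was 59.3 to 70.1 on batch 2 arrays, 79.4 to 89.1 on batch 1 arrays and 61.1 to 64.4 on batch 3 arrays. The Ebi3 probe set read 1728, 29.4, 2057 and 72.5 in batch 2, against 1159, 3, 1063 and 15.2 in batch 1, in the order WT, Ebi3 -/-, Il10 -/- and double knockout that is kept throughout, and so followed the labelled Ebi3 genotype. The Il10 probe set read 2939.8, 2385, 1976 and 2639.6 in batch 2 and 185, 1401, 2038 and 2251 in batch 1. It did not follow the Il10 genotype, and since the labels do not say which part of the gene was removed, it checks nothing. Foxp3, the defining transcription factor of Tregs, read 6153, 7390.2, 5900.4 and 7955 in batch 2, against 7362, 6215, 6090.3 and 5427 in batch 1 (0.12 on the log2 scale, adjusted p = 0.517). Of the 8 arrays the WT array of batch 1 stood apart. By Dixon's test its value lay apart from the other 3 arrays of its batch for 591 genes (4.25%), against 0.928 to 1.63% of genes on each of the other 7 arrays. It was the lowest of the 8 arrays for 32 of 36 immediate-early genes (88.9%), against 13.6% of all genes. Where leaving out the WT pair ended the call of a named gene or moved its difference by over 1.5 times, the value without the pair is given.

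The 5′ ends of the beta-actin and GAPDH transcripts were read much more weakly in batch 2 than in batch 1, while the values of their 3′ ends overlapped. The 5′ probe set of beta-actin read 7457, 4472, 6081 and 5065 in batch 2, against 20218, 19238, 20988 and 18851 in batch 1. Its 3′ probe set read 37036, 41388, 40758 and 33139 in batch 2, against 33441, 37558, 36663 and 34573 in batch 1. The 5′ values did not overlap between the batches and the 3′ values did. For GAPDH, a glycolytic enzyme, the 5′ probe set read 1376, 735, 982 and 989 in batch 2, against 4804, 4480.2, 4933 and 4663 in batch 1. Its 3′ probe set read 13844, 17229.9, 16524 and 13908 in batch 2, against 15883, 14992, 16439 and 15393 in batch 1. Again the batches separated at the 5′ end and overlapped at the 3′ end.

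As a log2 difference of 3′ over 5′, beta-actin stood at 2.74 ± 0.37 in batch 2, 0.84 ± 0.10 in batch 1 and 1.11 ± 0.28 in batch 3 (SD, n = 4 each). The ratio was 3.73-fold higher in batch 2 than in batch 1. GAPDH stood at 3.91 ± 0.50 in batch 2, 1.73 ± 0.01 in batch 1 and 2.37 ± 0.42 in batch 3, which made its ratio 4.55-fold higher in batch 2 than in batch 1. The ratio of 18S ribosomal RNA, which has no poly-A tail, was 1.85-fold higher in batch 2. The added poly-A transcripts, which never were in the cells, moved the same way. Their ratios were 6.50-fold (dap), 3.06-fold (lys), 7.50-fold (phe) and 2.77-fold (thr) higher in batch 2. The size of these folds depends on the constant added to the signals, since on 3 of the 4 batch 2 arrays the 5′ probe sets of phe (63.1 to 79.6) and thr (62.8 to 71.2) read about as low as the median probe set, and that of lys read 59 to 101. With signal + 100 the log2 difference between batches was 2.17 for dap, 1.26 for lys, 2.30 for phe and 0.97 for thr, against 2.70, 1.61, 2.91 and 1.47 with signal + 20. The 5′ probe set of dap read 113, 218, 83.2 and 87.9 in batch 2, against 662, 656, 1166 and 541 in batch 1. All 7 of these transcripts had a higher ratio in batch 2 in all 4 genotype pairs. By an exact two-sided sign-flip permutation test over the 4 pairs each had p = 0.125 (adjusted p = 0.153 over 11 transcripts), which is the smallest p that 4 pairs can give. By an exact permutation test that ignores the pairs each had p = 0.0286 (adjusted p = 0.0449), again the smallest that 4 against 4 arrays allow.

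In the transcripts added already labelled the difference was small. The log2 difference between batches of their 3′ over 5′ signal was -0.09 for bioB, 0.058 for bioC, 0.094 for bioD and -0.039 for cre, with exact permutation p-values of 0.457, 0.371, 0.0571 and 0.0571 without the pairing. By the exact sign-flip test over the pairs bioC and cre also had p = 0.125, so that test does not set these small differences apart from the large ones. The geometric mean of the 3′ signals of the poly-A controls was 3259 to 3817 on 3 of the 4 batch 2 arrays, against 3075 to 5920.3 in batch 1. On the Ebi3 -/- array of batch 2 they averaged 11933. That array also had the highest GAPDH and beta-actin ratios of the 8. The WT array of batch 1, which stood apart for immediate-early genes, had a GAPDH ratio of 3.31, within the 3.30 to 3.35 of all batch 1 arrays. Its beta-actin ratio of 1.65 was the lowest of batch 1, where the other arrays had 1.75 to 1.95. Whether the RNA itself or its copying differed between batches was not tested.

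**Figure D1:**
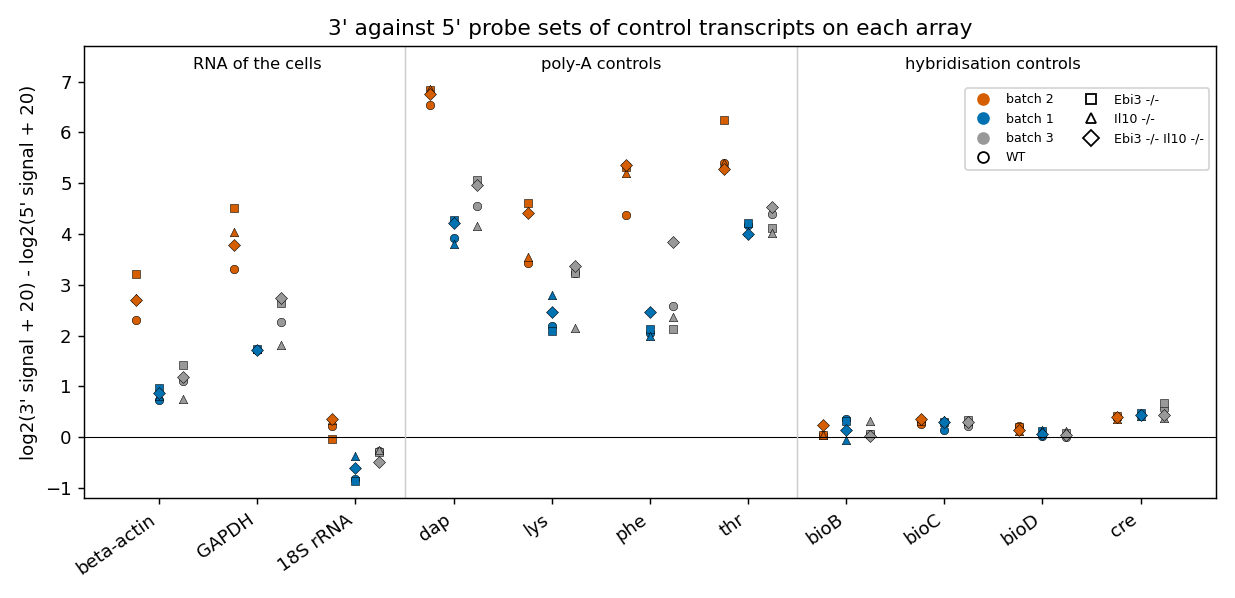
The log2 difference between the 3′ and the 5′ signal of each control transcript is plotted for every array, with batch as colour and genotype as shape. For beta-actin, GAPDH, 18S and the 4 poly-A controls all batch 2 points lie above all batch 1 points, while the pre-labelled hybridisation controls of the batches lie together near 0.

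Batch 2 differed from batch 1 across much of the array. Limma called 2912 probe sets higher (9.32% of those tested) and 5872 lower (18.8%) in batch 2, with a median log2 difference of -0.18 over the tested probe sets. Of the called probe sets, 8325 of 8784 moved the same way in all 4 genotype pairs. Changes of at least 2-fold were unevenly split, with 371 probe sets higher and 2774 lower. The share of calls that were higher was 33.2%, but it was 50.8% after quantile normalization and 72.9% after each array was centred on its median, which moved the median difference to 0.02 and 0.19. Over the 8 arrays, batch accounted for 42.3% of the variance of the tested probe sets and genotype for 30.0%, and with the batch 3 arrays added batch accounted for 53.8% and genotype for 16.5%. The rest was 27.7% over 8 arrays, with 3 residual degrees of freedom, and 29.8% over 12 arrays, with 6. The genotype shares also hold spread between single arrays and were not tested. Batch 3 against batch 1 gave 3180 higher (10.2%) and 5777 lower calls (18.5%; by gene 16% and 8.45%), and batch 3 against batch 2 gave 3433 higher (11%) and 3117 lower (9.98%; by gene 14.4% and 7.86%). These contrasts share arrays with the first and are set beside it only for size.

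The direction followed the strength of the signal. Among the brightest of 5 equal classes of probe sets by mean signal, 29.5% were called higher and 14.6% lower in batch 2 (median 0.14). In the middle class 4.34% were higher and 29.5% lower (median -0.32), and in the dimmest class 0.528% were higher and 6.32% lower (median -0.22). The shares of all genes that stand beside the gene lists below do not take signal level into account. Probe sets without a gene symbol in the array's annotation were called lower in 30.9% and higher in 2.29% of 5120 cases (median -0.49), against 16.4% lower and 10.6% higher for the 25407 with 1 symbol.

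**Figure D2:**
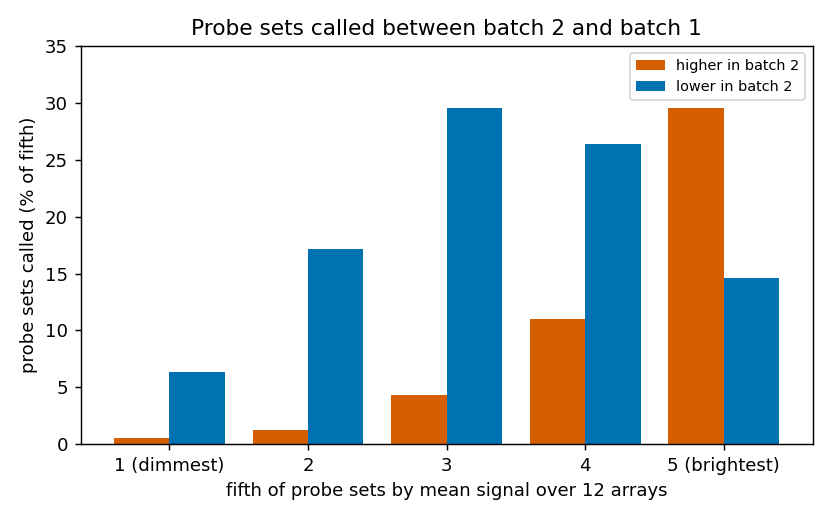
The bars give the percent of probe sets called higher or lower in batch 2 than in batch 1 in each of 5 equal classes of mean signal over the 12 arrays, from the dimmest to the brightest. Calls higher in batch 2 grow with signal to 29.5% in the brightest class, while lower calls peak at 29.5% in the middle class.

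Some genes had probe sets that went opposite ways. Of 6491 genes with at least 2 tested probe sets, 467 (7.19%) had probe sets called in both directions. The median difference was 0.05 for the brightest probe set of a gene and -0.26 for its dimmest, and the brightest lay above the dimmest in 68.0% of genes. Rapgef6, an exchange factor for the GTPase Rap, gave an example. Its brighter probe set read 9363, 9009.6, 7473 and 5888 in batch 2, against 6303, 5171, 5452 and 5568 in batch 1, a log2 difference of 0.48 ± 0.12 (SE; adjusted p = 0.0113). A dimmer one read 124, 132, 178 and 174 in batch 2, against 1319, 1036, 1072 and 1016 in batch 1, a log2 difference of -2.73 ± 0.19 (SE; adjusted p = 8.07e-06). Esco1, an acetyltransferase of the cohesin ring, rose by 0.54 (adjusted p = 0.00211) by 1 probe set and fell by 2.59 (adjusted p = 2.46e-05) by the other. The RNA-binding protein gene Celf2 (0.50 and -2.71), the homeobox gene Cux1 (0.50 and -2.77) and the RNA helicase gene Ddx46 (0.46 and -2.52) likewise passed in both directions, though the brighter probe set of Ddx46 did not pass without the WT pair (0.37, adjusted p = 0.0626). Of Actb, the beta-actin gene, the brightest probe set had a difference of 0.015, adjusted p = 0.936, and another fell by 1.51 (adjusted p = 0.000819). That Actb probe set and the brighter partners of these pairs were named after their values were seen. Where in the transcript each probe set lies was not analysed here.

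Several nuclear-retained RNAs fell in batch 2. Malat1, a long non-coding RNA of nuclear speckles, read 1055, 612, 598 and 781 in batch 2, against 12101, 14255, 8659 and 9172 in batch 1. The highest batch 2 value was far below the lowest of batch 1, and the difference was -3.83 ± 0.16 (SE; adjusted p = 4.97e-08). In batch 3 this probe set read 9526, 6231, 5343 and 5306, above the batch 2 values and overlapping those of batch 1. Of the 7 tested probe sets of Malat1 5 were called lower. Another read 3329, 4846, 3321 and 2738 in batch 2, against 2038, 3833, 4395 and 4278 in batch 1 (-0.00053, adjusted p = 0.999). A further one did not pass either (-0.66, adjusted p = 0.111). The fall of Malat1 thus depended on the probe set. Neat1, the scaffold RNA of paraspeckles, read 692, 349, 532 and 523 in batch 2, against 1138, 1514, 1393 and 1730.4 in batch 1 (-1.45 ± 0.21 SE, adjusted p = 0.000352). Kcnq1ot1, a nuclear RNA that silences its imprinted neighbourhood, read 187, 92.8, 175 and 251 in batch 2 and 889, 739, 846 and 1005 in batch 1 (-2.24 ± 0.21 SE, adjusted p = 4.38e-05). Both were without overlap between the batches. Malat1, Neat1 and Kcnq1ot1 were the 3 called among 8 measured members of a list of nuclear-retained and mitochondrially encoded RNAs (37.5% lower, against 12.5% of all genes). The other 5 did not pass, among them Gas5, the host of several small nucleolar RNAs (-0.21, adjusted p = 0.281, and above 0 under median centring). Except for Malat1, the names in this group were chosen after the values were seen.

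**Figure D3:**
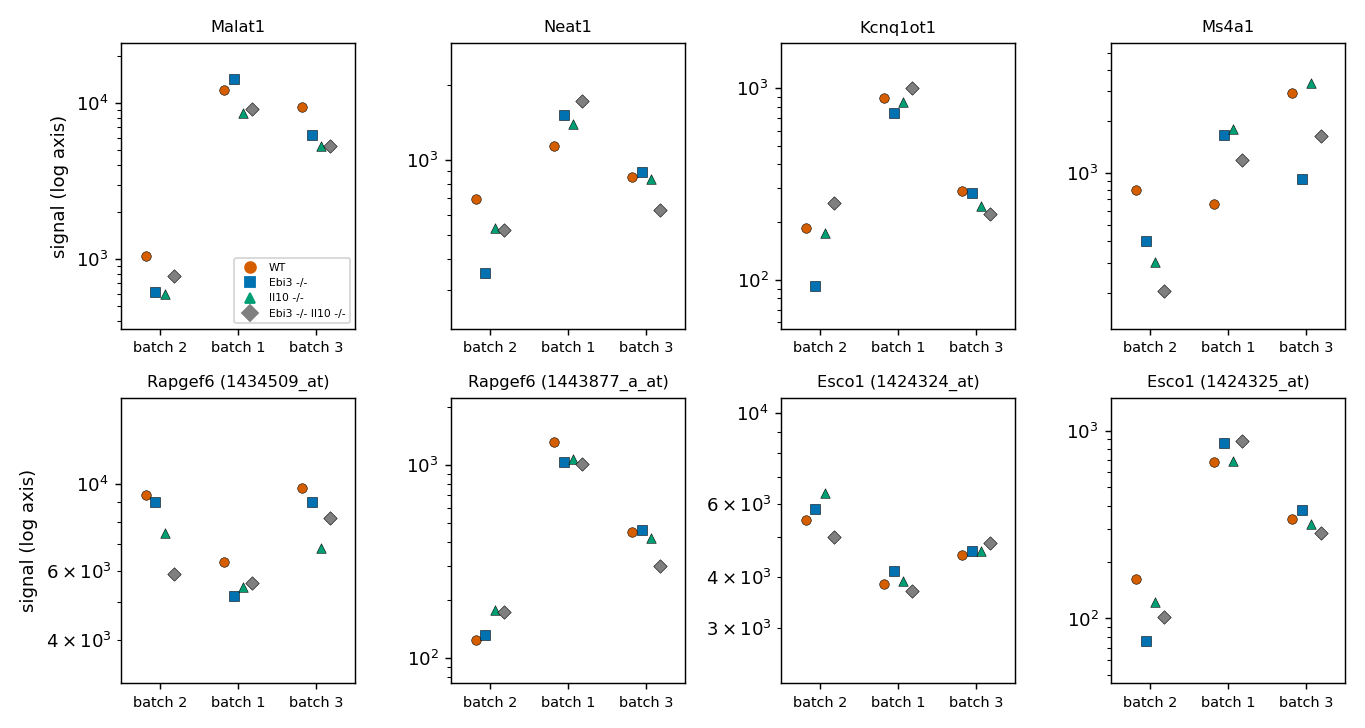
Signals on a log axis are shown for each array, by batch and genotype, for 3 nuclear RNAs, the B cell gene Ms4a1 and both probe sets of Rapgef6 and Esco1. The batch 2 points of Malat1, Neat1 and Kcnq1ot1 lie below all batch 1 points, and the paired probe sets of Rapgef6 and of Esco1 move in opposite directions.

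Malat1 was among the 15 genes that fell most in batch 2, where each gene stands for its probe set of smallest p, which need not be its brightest. Ankrd11, a chromatin regulator, read 369, 268, 236 and 435 in batch 2, against 2796, 3458, 3522 and 2878 in batch 1 (-3.23 ± 0.18 SE, adjusted p = 1.97e-06). Snrnp70, a protein of the U1 splicing particle, read 315, 209.5, 331 and 435 in batch 2, against 1880.3, 2017, 1725 and 2049 in batch 1 (-2.54 ± 0.19 SE, adjusted p = 1.4e-05). Smchd1, a silencing factor of the inactive X chromosome, read 224, 95.6, 120 and 206 in batch 2 and 696, 1184, 1386 and 1244 in batch 1 (-2.69 ± 0.27 SE, adjusted p = 5.25e-05). None of these overlapped. Peli1, a ubiquitin ligase that restrains T cell activation (-2.73, adjusted p = 4.09e-05), the nuclear receptor gene Nr2c2 (-2.55, adjusted p = 5.73e-05) and the lysosomal transporter gene Abcb9 (-2.63, adjusted p = 9.33e-05) fell. For 4 of these genes the brightest probe set did not pass, which was looked up after the values were seen. That of Peli1 read 7071, 8097, 8400.1 and 7249 in batch 2, against 7211, 8176, 7818 and 7649 in batch 1 (-0.0040, adjusted p = 0.983). The brightest probe sets of Nr2c2 (0.045, adjusted p = 0.832), Ankrd11 (-0.13, adjusted p = 0.491) and Smchd1 (-0.032, adjusted p = 0.892) likewise differed little, so these genes fell by their dimmer probe sets. Under median centring the brightest Peli1 probe set passed as higher (0.36, adjusted p = 0.0364). The brightest probe sets of Snrnp70 (-1.15, adjusted p = 0.00014) and Abcb9 (-0.91, adjusted p = 0.00647) were called lower too. Depp1 (-2.58, adjusted p = 0.000894) and 3300002A11Rik (-2.75, adjusted p = 5.49e-05) fell too. Cryl1, a dehydrogenase of sugar metabolism, differed most in size (-4.04 ± 0.91 SE, adjusted p = 0.00527), but it read 5.8, 7.9, 2406 and 605 in batch 2, against 5918, 1431, 2604 and 3527 in batch 1, and these values overlap.

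The 15 genes that rose most were chosen in the same way. Gna13, a G protein subunit that restrains migration, read 9860.2, 17422, 8483 and 8947 in batch 2, against 738, 3271, 3144 and 4319.9 in batch 1 (2.15 ± 0.35 SE, adjusted p = 0.000728), though its brightest probe set did not pass (0.17, adjusted p = 0.239) and another fell (-0.66, adjusted p = 0.00554). Spry2, a feedback inhibitor of growth factor signals, read 332, 933, 346 and 404 in batch 2, against 33.7, 143, 132 and 83.2 in batch 1 (2.14 ± 0.30 SE, adjusted p = 0.000327). Bhlhe40, a transcription factor induced in activated T cells, read 12334, 15935, 11288 and 11237 in batch 2 and 606, 5018, 5617 and 6727 in batch 1 (1.93 ± 0.43 SE, adjusted p = 0.00525, and 1.14, adjusted p = 0.000514 without the WT pair). None of these 3 overlapped, and the WT array of batch 1 was the lowest in each. Alkbh5, an RNA demethylase, read 8502, 13765, 11594 and 8712 in batch 2, against 2611, 3747, 3726 and 2844 in batch 1 (1.70 ± 0.16 SE, adjusted p = 4.09e-05), with a like difference in every pair (1.70, 1.87, 1.63 and 1.61). Mmd (1.76, adjusted p = 4.09e-05), Zbtb21 (1.98, adjusted p = 0.000586), Fem1c (1.81, adjusted p = 0.000523), Grip2 (1.72, adjusted p = 0.000494), and Cenpp (1.67, adjusted p = 0.00798) also rose, as did Sys1 (1.75, adjusted p = 0.000164), although its brightest probe set was called lower (-0.53, adjusted p = 0.0055). The ubiquitin ligase gene Siah2 rose by 1.70 (adjusted p = 0.0451), with pair differences of 4.78, 1.54, 0.38 and 0.085. It was 0.67, adjusted p = 0.0434 without the WT pair, and the call was lost after quantile normalization (1.66, adjusted p = 0.0668). The remaining names are Tiparp, by a dimmer probe set (1.66, adjusted p = 0.00176), and the IgM heavy chain gene Ighm, by a dimmer probe set (1.70, adjusted p = 0.018). The neutrophil attractant gene Cxcl2 rose by 1.78 (adjusted p = 0.0161, and 0.85, adjusted p = 0.00103 without the WT pair). It read 4020.4, 5188, 5232 and 7532 in batch 2, against 151, 2978, 3194 and 3666 in batch 1, without overlap. The immunoglobulin heavy chain gene Igha rose by 2.61 (adjusted p = 1.4e-05) and is taken up with the cell type markers.

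Immediate-early genes were higher in batch 2 than in batch 1 in the WT pair and went both ways in the knockout pairs. Of 36 members 12 rose (33.3%) and 2 fell, where 13.9% of all genes rose and 12.5% fell. In the brightest class of probe sets 29.5% rose and 14.6% fell. The median log2 difference of the members was 0.60, against -0.05 over all genes. The signals of 10 members did not overlap between the batches, against 27.2% of all genes. Within the pairs the median was 2.02 in WT (36 of 36 members higher), 0.26 in Ebi3 -/- (27 of 36), 0.11 in Il10 -/- (21 of 36) and -0.073 in the double knockout (17 of 36). Without the WT pair the median was 0.09, with 11 members higher and 5 lower, where 12.7% of all genes were higher and 10.1% lower. Of the 12 higher calls 10 were shared, Nr4a1 and Rgs1 were lost and Klf4 was gained. With the WT array of batch 2 left out 5 members were higher, with its Ebi3 -/- array left out 7, and with the Ebi3 -/- pair left out 6. The mean log2 level of the list was 12.33 to 12.65 on the batch 2 arrays. In batch 1 it was 10.36 on the WT array and up to 12.49 on the others, and in batch 3 it was 11.44 to 11.71.

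The orphan nuclear receptor Nr4a3, which T cells induce on receptor signals, read 7954, 12754, 5227 and 6182 in batch 2, against 1119, 3055, 2847 and 3673 in batch 1. The groups did not overlap, the difference was 1.62 ± 0.29 (SE; adjusted p = 0.0013), and it was 1.22 without the WT pair. Fosl2, a partner of Jun in AP-1, read 2352, 3026, 2141 and 2439.8 in batch 2, against 143, 1273, 1439 and 1436 in batch 1 (1.61 ± 0.44 SE, adjusted p = 0.0157, and 0.85, adjusted p = 0.00281 without the WT pair). Gadd45b, a stress sensor upstream of p38, read 8239, 13699, 9326 and 8580 in batch 2, against 899, 5110, 5934 and 6154 in batch 1 (1.43 ± 0.36 SE, adjusted p = 0.00935, and 0.85, adjusted p = 0.00426 without the WT pair). Both were without overlap, with the WT array of batch 1 far below the other 3 of its batch. In batch 3 Nr4a3 read 1536 to 1743, Fosl2 297 to 387 and Gadd45b 3071 to 4246, below every batch 2 array. Tiparp, an ADP-ribosyltransferase (1.19, adjusted p = 0.0242), Rgs2, an inhibitor of G protein signals (1.09, adjusted p = 0.0378), and Dusp5, a phosphatase that inactivates ERK in the nucleus (1.05, adjusted p = 0.0183), rose as well. Without the WT pair these differences were 0.60, 0.45 and 0.61, each past the threshold. Another probe set of Gadd45b was called lower.

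Several members without a call, named after their values were seen, had by far their largest difference in the WT pair. Klf4, a transcription factor of quiescence, read 12219.9, 16805, 13467 and 10896 in batch 2, against 229, 9569.8, 9283 and 9368 in batch 1. The WT array of batch 1 was far below the other 7. The difference was 1.80 (adjusted p = 0.0849) with all pairs and 0.52 without the WT pair, where it passed. Fosb read 3309, 5433, 5007 and 3993 in batch 2, against 159, 4296, 5786 and 4454 in batch 1 (1.05, adjusted p = 0.237, and -0.0092, adjusted p = 0.973 without the WT pair). Atf3, a stress-induced repressor (0.83, adjusted p = 0.326), Maff (0.66, adjusted p = 0.511) and the early activation antigen Cd69 (0.68, adjusted p = 0.173) had values of -0.27, -0.50 and 0.015 without the WT pair. Fos read 23831, 27872, 30005 and 25717 in batch 2, against 12085, 27079, 26231 and 24496 in batch 1 (0.32, adjusted p = 0.183), and Egr1 read 11130.2, 15642, 8791 and 8848 in batch 2, against 3924, 12166, 10996 and 10727 in batch 1 (0.32, adjusted p = 0.39).

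Some members went the other way. Zfp36, which binds AU-rich messages and speeds their decay, read 5731, 6172, 7346 and 6279 in batch 2, against 4557, 14716, 13133 and 13586 in batch 1, and fell by 0.72 (adjusted p = 0.0379). Btg2, an inhibitor of the cell cycle, read 2529.9, 2455, 4502 and 4130.2 in batch 2, against 2471, 6590.1, 7058 and 6522 in batch 1, and fell by 0.67 (adjusted p = 0.0216). In both, 3 batch 1 arrays lay above all batch 2 arrays and the WT array of batch 1 did not. Jun had 2 tested probe sets, of which the dimmer was called higher over all pairs. The brighter read 7161, 5307, 8123 and 5868 in batch 2, against 1964, 12373, 15418 and 11069 in batch 1. Its pair differences were 1.86, -1.22, -0.92 and -0.91, so the WT pair went up and the knockout pairs down, and the overall value was -0.30, adjusted p = 0.618. Junb did the same, with pair differences of 1.18, -1.01, -1.19 and -1.18. Without the WT pair both were called lower (-1.02, adjusted p = 0.000409 for Jun and -1.13, adjusted p = 0.000577 for Junb). Sik1, a kinase of the cAMP response, was the remaining call there (-1.27, adjusted p = 0.0341).

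**Figure D4:**
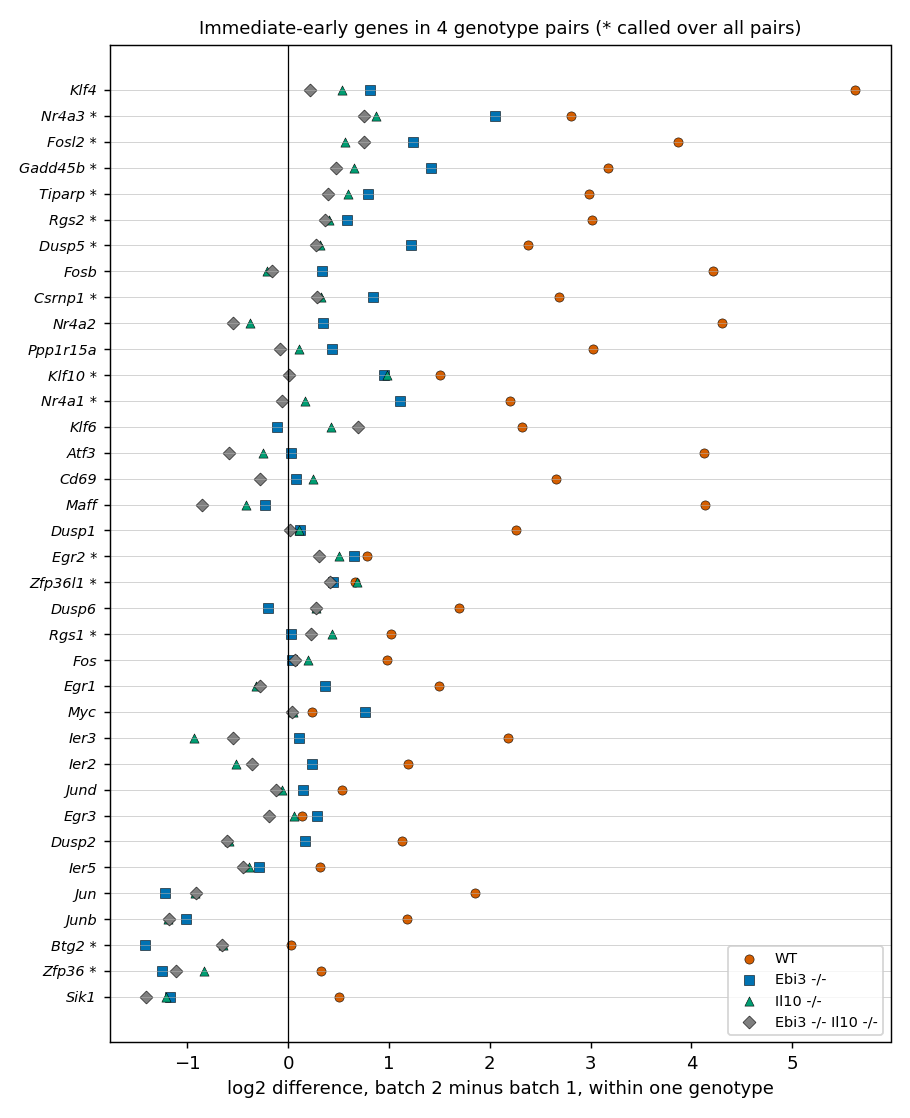
The log2 difference, batch 2 minus batch 1, is shown within each genotype pair for the immediate-early genes, ordered by the difference over all pairs, and an asterisk marks the genes called over all pairs. The WT points lie above 0 for 36 of 36 genes, while the knockout pairs scatter about 0 and lie below it together for Maff, Ier5, Jun, Junb, Btg2, Zfp36 and Sik1.

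The promoters of 2 members that rose and 2 that fell are printed to show motifs known from this class of genes: the cAMP response element (TGACGTCA, half-site TGACG) and the CArG box, the binding motif of serum response factor. Both strands were searched. The sequences are from RefSeq (GRCm38.p6), run from 250 bases before to 50 after the annotated start, and are given 5′ to 3′ on the gene's strand. Capitals mark the 4 half-sites in Nr4a3 (chr4:48045055-48045354, plus strand), the 2 CArG boxes in Dusp5 (chr19:53528895-53529194, plus strand), the palindromic element in Btg2 (chr1:134079106-134079405, minus strand) and the CArG box in Zfp36 (chr7:28379179-28379478, minus strand).
Nr4a3 promoter: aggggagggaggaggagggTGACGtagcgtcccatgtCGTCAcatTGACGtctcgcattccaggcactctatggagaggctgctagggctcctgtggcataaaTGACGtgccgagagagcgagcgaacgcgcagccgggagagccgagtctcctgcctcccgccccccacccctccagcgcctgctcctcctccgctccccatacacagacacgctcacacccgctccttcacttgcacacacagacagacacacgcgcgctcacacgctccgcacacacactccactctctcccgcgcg
Dusp5 promoter: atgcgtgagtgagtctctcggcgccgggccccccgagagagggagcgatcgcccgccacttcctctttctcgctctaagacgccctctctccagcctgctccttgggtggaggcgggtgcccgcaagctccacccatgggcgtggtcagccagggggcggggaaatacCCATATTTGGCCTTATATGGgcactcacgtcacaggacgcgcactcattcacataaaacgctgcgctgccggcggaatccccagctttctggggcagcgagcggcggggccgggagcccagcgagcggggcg
Btg2 promoter: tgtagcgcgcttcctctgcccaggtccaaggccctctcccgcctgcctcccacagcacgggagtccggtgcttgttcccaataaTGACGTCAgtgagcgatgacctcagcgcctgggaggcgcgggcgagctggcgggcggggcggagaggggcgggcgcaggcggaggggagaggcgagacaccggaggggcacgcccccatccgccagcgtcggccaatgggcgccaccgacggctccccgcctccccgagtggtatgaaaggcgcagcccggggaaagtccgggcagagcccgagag
Zfp36 promoter: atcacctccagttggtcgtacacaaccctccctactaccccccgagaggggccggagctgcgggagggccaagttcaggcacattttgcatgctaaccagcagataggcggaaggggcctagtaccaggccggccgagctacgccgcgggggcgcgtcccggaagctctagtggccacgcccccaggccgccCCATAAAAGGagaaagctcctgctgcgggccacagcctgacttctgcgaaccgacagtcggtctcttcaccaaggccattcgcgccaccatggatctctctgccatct
The half-site was found in 20.8% of 32851 mouse promoters of this length and in 17 of the 28 immediate-early genes found in the table. The palindromic element was found in 1.79% of all and in 4 of the 28, and the CArG box in 1.63% of all and in 3 of the 28. The AP-1 site TGANTCA was found in 7.81% of all and in 2 of the 28. A match describes these letters only, and the printed promoters hold them in genes that rose and in genes that fell.

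Feedback genes of NF-kB, the transcription factor family of inflammatory and antigen receptor signals, were called about as often as all genes. Of 15 members 2 rose (13.3%) and 1 fell (6.67%), against 13.9% and 12.5% of all genes, with a median of 0.19. Rel, the subunit c-Rel, read 3625, 4687, 3314 and 3664 in batch 2, against 538, 1464, 1557 and 2061 in batch 1, without overlap (1.57 ± 0.27 SE, adjusted p = 0.00109). Tnip1, which restrains NF-kB through A20, rose by 0.58 (adjusted p = 0.00777). Nfkb2, the precursor of p52, read 627, 558, 652 and 839 in batch 2, against 1128, 1391, 1438 and 1357 in batch 1, and fell by 0.98 (adjusted p = 0.00165). The batches did not overlap for Tnip1 and Nfkb2, which moved the same way in each pair.

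Activation and effector Treg genes moved both ways. Of 31 members 9 rose (29.0%, against 13.9% of all genes) and 2 fell, with a median of 0.21. The share that rose was near the 29.5% of the brightest class of probe sets. Cxcr3, the homing receptor of type 1 responses, read 4813, 4183, 6004 and 3497 in batch 2, against 3286, 1774, 4007 and 1476 in batch 1, higher in each pair (0.90 ± 0.21 SE, adjusted p = 0.00654). Cd44, an adhesion receptor of activated cells, read 8558, 9413, 6552 and 8785 in batch 2, against 4925, 5480, 5148 and 5763 in batch 1, without overlap (0.63 ± 0.14 SE, adjusted p = 0.00425). Lag3, an inhibitory receptor (0.76, adjusted p = 0.0136), Rora, a nuclear receptor (0.75, adjusted p = 0.00187), and Slc3a2, the heavy chain of amino acid transporters (0.73, adjusted p = 0.00451), also rose. Ebi3 rose by 1.00 (adjusted p = 0.00487). Its difference was 0.57 in the WT pair and 0.94 in the Il10 -/- pair, and the other pairs compare signals near background. Batf, an AP-1 factor of effector Tregs, read 999.9, 847, 1114 and 1106 in batch 2, against 1854, 1609, 2053 and 2027 in batch 1, without overlap (-0.88 ± 0.12 SE, adjusted p = 0.000303). Tnfrsf18, the receptor GITR, fell by 0.71 (adjusted p = 0.00212). Tnfrsf4, the receptor OX40 (0.12, adjusted p = 0.573), and Tnfrsf9, the receptor 4-1BB (0.12, adjusted p = 0.58), did not pass, and both had values below 0 after quantile normalization.

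Of 12 Treg identity genes 4 fell (33.3%, against 12.5% of all genes) and 1 rose, and their median of -0.11 was 0.25 under median centring and 0.039 without the WT pair. The list held Tnfrsf18, given above, and 3 further calls named after their values were seen. Il2rb, a chain of the IL-2 receptor, read 1412, 1451, 1480 and 1318 in batch 2, against 4107, 3081, 3524 and 2598 in batch 1 (-1.20 ± 0.18 SE, adjusted p = 0.000476). Izumo1r, the folate receptor family protein FR4, read 3701, 5389.5, 4114 and 4228 in batch 2, against 10705, 7350, 10425 and 9025 in batch 1 (-1.10 ± 0.15 SE, adjusted p = 0.000237). Capg, an actin capping protein, fell by 1.00 (adjusted p = 0.00025), and the inhibitory receptor gene Ctla4 rose by 0.50 (adjusted p = 0.0358, and 0.27, adjusted p = 0.0932 without the WT pair). Without the WT pair 4 members were called lower and 0 higher. Among targets of IL-2 and STAT5, 4 of 14 rose (28.6%) and 5 fell (35.7%), against 13.9% and 12.5% of all genes. In the brightest class of probe sets these shares were 29.5% and 14.6%. Without the WT pair 2 of these targets rose. Lta, the gene of lymphotoxin alpha, read 821, 682, 488 and 715 in batch 2, against 2292, 1759, 1260.2 and 2033 in batch 1 (-1.40 ± 0.19 SE, adjusted p = 0.000246). The cytokine signal inhibitor Socs1 fell by 1.00 (adjusted p = 0.00872), the cytokine gene Osm fell too (-0.97, adjusted p = 0.00492), and the kinase gene Pim1 (0.53, adjusted p = 0.0161) and the survival gene Bcl2l1 (0.53, adjusted p = 0.0121) rose. Of 10 genes of the T cell lineage 3 fell (30%) and 1 rose (10%), against 12.5% and 13.9% of all genes. Without the WT pair 1 fell and 2 rose. Lat, the scaffold of antigen receptor signals, read 5209, 5186, 6066 and 6104 in batch 2, against 11498, 11048, 11491 and 10341 in batch 1 (-0.98 ± 0.11 SE, adjusted p = 9.35e-05). Cd4 (-0.55, adjusted p = 0.0136) and Cd2 (-0.26, adjusted p = 0.0414, but 0.097 under median centring) fell and Cd28 (0.73, adjusted p = 0.00716) rose, and these lineage calls too were named after their values were seen. Cd4 (-0.36, adjusted p = 0.0673) and Cd2 (-0.26, adjusted p = 0.105) did not pass without the WT pair. The median of -0.23 of this list, like that of the IL-2 targets (-0.23), turned positive under median centring.

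Heat shock proteins and cochaperones were called about as often as all genes. Of 27 members 3 rose (11.1%) and 2 fell (7.41%), against 13.9% and 12.5% of all genes, with a median of 0.17, or 0.03 without the WT pair. Hspa9, the mitochondrial Hsp70, read 7001, 7452, 6114 and 5608 in batch 2, against 3360.3, 3352, 4535 and 3758 in batch 1, without overlap (0.80 ± 0.13 SE, adjusted p = 0.000934, and 0.72, adjusted p = 0.00358 without the WT pair). Hspa4 (0.38, adjusted p = 0.0169) and Dnajb6 (0.33, adjusted p = 0.0361) rose, and neither passed without the WT pair (0.27, adjusted p = 0.0937 for Hspa4 and 0.32, adjusted p = 0.0785 for Dnajb6). Fkbp4, a cochaperone of steroid receptors, read 878, 597, 1070.1 and 669.6 in batch 2, against 1363, 1283, 1502 and 1425 in batch 1, and fell by 0.81 (adjusted p = 0.00122). P4ha1 fell by 0.50 (adjusted p = 0.0473). It encodes a subunit of a collagen prolyl hydroxylase and is no heat shock protein or cochaperone, although the list held it. The inducible Hsp70 gene Hspa1a, named after its values were seen, varied far more between arrays of a batch than between batches. It read 7442, 3018, 19748 and 17089.5 in batch 2, against 585, 7839.6, 22014 and 20122 in batch 1 (0.47, adjusted p = 0.656, and -0.59, adjusted p = 0.175 without the WT pair). Its cochaperone Dnajb1 read 9931, 13166, 23176 and 12197 in batch 2, against 3693, 9139, 15512 and 12599 in batch 1 (0.62, adjusted p = 0.139). The Il10 -/- arrays were the highest of batch 2 and of batch 1 for both genes. The mean log2 level of the list was 11.35 to 12.21 in batch 2 and 10.89 to 11.92 in batch 1. In batch 3 this level was 11.16 to 11.51, with the Il10 -/- array the lowest.

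Genes of the unfolded protein response and targets of ATF4 had 9 of 30 members higher (30.0%, against 13.9% of all genes) and 3 lower, with a median of 0.19. The share of higher calls was near the 29.5% of the brightest class of probe sets. The mean log2 level of the list was 10.67 to 10.94 in batch 2. Canx, a chaperone of the endoplasmic reticulum, read 11591, 12618, 16938 and 14595 in batch 2, against 8776, 7467, 8012 and 7903 in batch 1 (0.78 ± 0.12 SE, adjusted p = 0.00044). Xbp1, the transcription factor that this response activates by splicing, read 8439, 10121, 9557 and 9444 in batch 2, against 5417, 5972, 6494 and 6299 in batch 1 (0.63 ± 0.099 SE, adjusted p = 0.00057). Neither overlapped. Hspa5, the chaperone BiP (0.54, adjusted p = 0.0123), Edem1, of the degradation pathway (0.51, adjusted p = 0.00448), Asns, asparagine synthetase (0.80, adjusted p = 0.00725), and Dnajb9 (0.97, adjusted p = 0.0439, and 0.37, adjusted p = 0.0297 without the WT pair) also rose. In the same compartment Pdia3, a disulfide isomerase, read 1158, 981, 1476 and 1497 in batch 2, against 3424, 2444, 2593 and 2281 in batch 1 (-1.06 ± 0.16 SE, adjusted p = 0.000467), and Hsp90b1, the chaperone GRP94, fell by 0.70 (adjusted p = 0.00127). Atf5 fell by 0.67 (adjusted p = 0.0348, and -0.61, adjusted p = 0.114 without the WT pair). Another Canx probe set was called lower. Without the WT pair 6 members were higher and 2 lower.

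Of 17 genes of oxidative stress and metal binding 3 rose (17.6%) and 2 fell (11.8%), near the 13.9% and 12.5% of all genes. Without the WT pair 3 rose and 1 fell. The superoxide dismutases Sod2 (0.69, adjusted p = 0.000549) and Sod1 (0.47, adjusted p = 0.00347) and the lipid peroxidase gene Gpx4 (0.57, adjusted p = 0.0278, and 0.86, adjusted p = 0.000639 without the WT pair) rose. The autophagy receptor gene Sqstm1 (-0.72, adjusted p = 0.00237) and the metallothionein gene Mt2 (-0.66, adjusted p = 0.0397, and -0.59, adjusted p = 0.113 without the WT pair) fell. Sod2 read 5960.1, 7021, 6014 and 5993 in batch 2, against 3471, 3825, 3698 and 4535 in batch 1, and Sqstm1 read 2234, 2571, 2508 and 2344 in batch 2, against 3563, 4388, 4064 and 3953 in batch 1, both without overlap. A second Gpx4 probe set was called lower.

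Hypoxia and glycolysis genes moved both ways, with 7 of 23 higher (30.4%) and 3 lower, against 13.9% and 12.5% of all genes. In the brightest class of probe sets 29.5% were called higher and 14.6% lower. With the WT pair left out 5 members of the list were higher and 2 lower. Slc2a1 (0.54, adjusted p = 0.073), Hk2 (0.58, adjusted p = 0.085) and Ldha (-0.36, adjusted p = 0.065) then did not pass. Egln3, an oxygen-sensing prolyl hydroxylase, read 1295, 2143, 979 and 1356 in batch 2, against 345, 509, 597 and 774 in batch 1 (1.34 ± 0.22 SE, adjusted p = 0.000727), and its relative Egln1 rose by 0.74 (adjusted p = 0.000894), although another Egln1 probe set fell. The mitophagy receptor gene Bnip3 (0.71, adjusted p = 0.00773), the glucose transporter gene Slc2a1 (0.70, adjusted p = 0.0145), Pgk1 (0.64, adjusted p = 0.00274) and Hk2 (0.63, adjusted p = 0.0297) rose. The glycolytic enzymes Pfkl (-0.97, adjusted p = 0.000605), Pkm (-0.64, adjusted p = 0.00471) and Ldha (-0.57, adjusted p = 0.014) fell, without overlap between the batches. Egln3 and the 3 enzymes that fell moved the same way in each pair.

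Targets of p53 had 5 of 15 members higher (33.3%, against 13.9% of all genes) and 2 lower, with a median of 0.36, and 3 were higher without the WT pair. Cdkn1a, the cell cycle inhibitor p21, read 974, 2239, 1829 and 1663 in batch 2, against 155, 705, 973 and 1057 in batch 1 (1.42 ± 0.30 SE, adjusted p = 0.0038), higher in each pair. Perp (1.19, adjusted p = 0.0146), the death receptor gene Tnfrsf10b (1.05, adjusted p = 0.0328), Sesn1 (0.72, adjusted p = 0.00117) and Ccng1 (0.68, adjusted p = 0.00517) rose, and the proapoptotic gene Bbc3 (-0.99, adjusted p = 0.00359) and the nuclease gene Aen (-0.58, adjusted p = 0.0177) fell. With the WT pair left out Perp (0.90, adjusted p = 0.069), Tnfrsf10b (0.72, adjusted p = 0.146) and Aen (-0.39, adjusted p = 0.0899) did not pass. Of 16 glucocorticoid response genes 4 rose (25%) and 2 fell (12.5%), against 13.9% and 12.5% of all genes. Without the WT pair 4 rose and 1 fell, and the list median of 0.42 was 0.0054. Tsc22d3, the glucocorticoid-induced leucine zipper, read 5319, 8278, 5023 and 5219 in batch 2, against 859, 3434, 3479 and 2569 in batch 1 (1.35 ± 0.28 SE, adjusted p = 0.00324). Sgk1, a kinase induced by glucocorticoids and serum, read 7866, 9413, 7444 and 8985 in batch 2, against 794, 5085, 4739 and 6527 in batch 1 (1.32 ± 0.36 SE, adjusted p = 0.0144). Neither overlapped, and the WT array of batch 1 was again far below the others. Sgk1 stood at 0.66, adjusted p = 0.00277 without the WT pair. Il1r2 (0.78, adjusted p = 0.0272) and Txnip (0.61, adjusted p = 0.0163) rose, and Rgs14 (-0.52, adjusted p = 0.0145) and Mt2 fell.

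Genes of oxidative phosphorylation moved both ways. Of 37 members 13 rose (35.1%) and 7 fell (18.9%), against 13.9% and 12.5% of all genes. The list was bright, with a mean log2 level of 12.48 to 12.70 in batch 2 and 12.36 to 12.66 in batch 1. In the brightest class of probe sets 29.5% were called higher and 14.6% lower, and the part of signal level in the list's share was not tested. Uqcrfs1, the Rieske protein of complex III, read 9335, 9298, 10052 and 9203 in batch 2, against 4442, 5059, 5450.1 and 5025 in batch 1, without overlap (0.92 ± 0.10 SE, adjusted p = 9.9e-05). The ATP synthase subunit genes Atp5c1 (0.87, adjusted p = 0.000125) and Atp5a1 (0.63, adjusted p = 0.000706) rose, as did Ndufv2 (0.74, adjusted p = 0.000622), Uqcrc2 (0.70, adjusted p = 0.00087) and Ndufb8 (0.69, adjusted p = 0.000821). Cox8a, a small subunit of complex IV, read 448, 279.5, 402 and 405 in batch 2, against 1662, 754, 961 and 1353 in batch 1 (-1.53 ± 0.20 SE, adjusted p = 0.000229). Sdhc (-1.01, adjusted p = 0.00042), Atp5o (-0.97, adjusted p = 0.00297), Ndufa4 (-0.44, adjusted p = 0.0274), Uqcrc1 (-0.40, adjusted p = 0.0308) and Ndufs3 (-0.37, adjusted p = 0.0208) fell. Subunits of the same complexes thus passed in both directions. After quantile normalization 8 members were higher and 8 lower, and without the WT pair 15 and 4, where Ndufa4 (-0.36, adjusted p = 0.0984) and Ndufs3 (-0.34, adjusted p = 0.063) did not pass.

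In the other growth and housekeeping lists calls also went both ways, and the genes given here were named after their values were seen. Of all genes 13.9% rose and 12.5% fell. Cytosolic ribosomal proteins had 5 of 32 members higher (15.6%) and 3 lower (9.38%), and 3 and 3 without the WT pair. Their median of 0.12 was -0.031 after quantile normalization. Rpl14 rose (0.68, adjusted p = 0.00344) and Rps15 fell (-0.93, adjusted p = 0.0002). Of 39 proliferation genes 8 rose (20.5%) and 5 fell (12.8%). Gmnn, an inhibitor of replication licensing, read 2438, 4114, 4345 and 4469 in batch 2, against 1444, 2421, 1763 and 1882 in batch 1 (1.01 ± 0.14 SE, adjusted p = 0.000303), and the replicative helicase subunit Mcm2 rose by 0.94 (adjusted p = 0.000426). The nucleotide salvage enzyme Tk1 (-1.13, adjusted p = 0.00303) and the cyclin gene Ccne1 (-0.88, adjusted p = 0.00421) fell. Of 28 RNA splicing factors 2 rose (7.14%) and 2 fell (7.14%), and without the WT pair 1 rose and 5 fell. Among them Srsf10 fell by 1.02 (adjusted p = 0.00332). Resting T cell genes had 3 of 18 higher (16.7%) and 4 lower (22.2%), with the transcription factor Id3 the largest fall (-0.97, adjusted p = 0.00213).

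Of 33 interferon response genes 3 rose and 7 fell (21.2%, against 12.5% of all genes), with a median of -0.27 that was 0.09 under median centring. Stat2, which carries the type I interferon signal to the nucleus, read 177, 66.3, 167 and 34.3 in batch 2, against 283, 196, 267 and 325 in batch 1 (-1.31 ± 0.32 SE, adjusted p = 0.00784). Ifit3, a sensor of viral RNA, read 303, 253, 264 and 165 in batch 2, against 985, 406, 469 and 614 in batch 1 (-1.21 ± 0.27 SE, adjusted p = 0.00463). Oas3 (-1.14, adjusted p = 0.00377) and the master regulator Irf7 (-0.84, adjusted p = 0.0038) also fell. Rsad2, the antiviral enzyme viperin, read 1743, 962, 1532 and 1403 in batch 2, against 786, 421, 445 and 735 in batch 1, and rose (1.23 ± 0.28 SE, adjusted p = 0.00523). The batches did not overlap for Stat2, Ifit3 and Rsad2, which were named after their values were seen.

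Where a listed gene had several probe sets, the one with the highest mean log2 level was used. Of 275 listed genes with at least 2 tested probe sets, 30 had probe sets called in both directions, among them Zfp36l1, Rora, Icos, Hspa4, Dnajb6, Hif1a, Sesn1, Tsc22d3 and Txnip.

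B cell markers were lower in batch 2 than in batch 1 in the knockout pairs. Of 13 members none rose and 9 fell (69.2%, against 12.5% of all genes), with a median of -1.10. The signals of 5 of the 13 did not overlap between the batches, against 27.2% of all genes. The pair medians were -0.055 in WT, -1.74 in Ebi3 -/-, -1.49 in Il10 -/- and -1.52 in the double knockout, and without the WT pair 11 members were called lower. The summed signal of the list was 8789 to 12480.8 in batch 2, 9630 to 21208 in batch 1 and 26502 to 49119 in batch 3. Cd79a, a signalling chain of the B cell receptor, read 72.8, 47.9, 91.7 and 93.3 in batch 2, against 308, 493, 587 and 560.1 in batch 1, without overlap (-2.38 ± 0.25 SE, adjusted p = 6.01e-05). Ms4a1, the antigen CD20, read 792, 400, 304 and 206 in batch 2, against 662, 1659.9, 1805 and 1189.5 in batch 1 (-1.67 ± 0.41 SE, adjusted p = 0.00875). There the WT arrays were alike and the knockout arrays of batch 2 the lower ones. The complement receptor gene Cr2 (-1.73, adjusted p = 0.00211), the Fc receptor gene Fcer2a (-1.65, adjusted p = 0.0122), the kinase gene Blk (-1.38, adjusted p = 0.00668), H2-Ab1 (-1.32, adjusted p = 0.00404), Cd22 (-1.10, adjusted p = 0.00677), Cd79b (-1.07, adjusted p = 0.00902) and Cd74 (-0.51, adjusted p = 0.0356) fell. The B cell genes were named after their values were seen. In bulk RNA, fewer cells of a type and less RNA per cell cannot be told apart.

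Plasma cell markers were not lower. Of 7 members 3 rose (42.9%, against 13.9% of all genes) and none fell, and 1 rose without the WT pair. The calls were Sdc1 (0.78, adjusted p = 0.0188), Xbp1 (given above) and Ighm (0.37, adjusted p = 0.0383), named after their values were seen. Xbp1 is also counted with the unfolded protein response. The other members, Jchain, Derl3, Tnfrsf17 and Mzb1, were not called. Sdc1 (0.74, adjusted p = 0.0647) and Ighm (0.37, adjusted p = 0.0917) did not pass without the WT pair. Igha, the heavy chain of IgA, read 748, 1527, 945 and 1389.5 in batch 2, against 92.8, 173, 119.8 and 356 in batch 1 and 1724, 1985, 1969 and 4825 in batch 3 (2.61 ± 0.20 SE, adjusted p = 1.4e-05 for batch 2 minus batch 1), and its 3 tested probe sets were called higher. Monocyte and macrophage markers had 1 of 14 members higher (7.14%), the lysozyme gene Lyz1 (0.78, adjusted p = 0.0166), named after its value was seen. Without the WT pair Lyz1 did not pass (0.60, adjusted p = 0.07), and 0 members were higher and 1 lower. The summed signal of the list was 6478 to 14748 in batch 2, 7801 to 10516 in batch 1 and 58864 to 87439 in batch 3. Within pairs, 14 of 14 were higher in batch 2 in the WT pair and 0 of 14 in the Il10 -/- pair. Neutrophil and granule markers had 0 calls in either direction among 14 by limma, and 1 of them had an unadjusted p under 0.05, with a summed signal of 1816 to 4896 in batch 2 and 1918 to 5471 in batch 1. Of 15 CD8 T and NK cell markers 3 rose (20%) and 2 fell (13.3%), against 13.9% and 12.5% of all genes. Without the WT pair 3 rose and 0 fell. Fasl, the ligand of Fas, rose by 1.64 (adjusted p = 0.00157) and was named after its value was seen. Dendritic cell markers had 2 of 10 lower (20%), which were Bst2 (-0.78, adjusted p = 0.00937) and H2-DMb2 (-1.27, adjusted p = 0.0155). Conventional CD4 T cell markers had 2 of 10 higher (20%) and 1 lower (10%), and 1 was higher without the WT pair. The part of these other cell types in the differences between the batches was not tested.

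The sex markers did not separate batch 2 from batch 1, with 0 of 4 called by limma and 0 at an unadjusted p under 0.05. Xist, which is transcribed from the inactive X chromosome, read 59.8, 41.6, 115 and 132 in batch 2, 120.1, 102, 101 and 75.2 in batch 1 and 3679, 4567, 6441 and 3620 in batch 3. Eif2s3y, on the Y chromosome, read 4478, 3075, 3247 and 3445 in batch 2, 3754, 2985, 3835 and 3391 in batch 1 and 43, 9.7, 1.9 and 30.6 in batch 3. Batches 2 and 1 thus showed the same pattern, and batch 3 the opposite one.

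**Figure D5:**
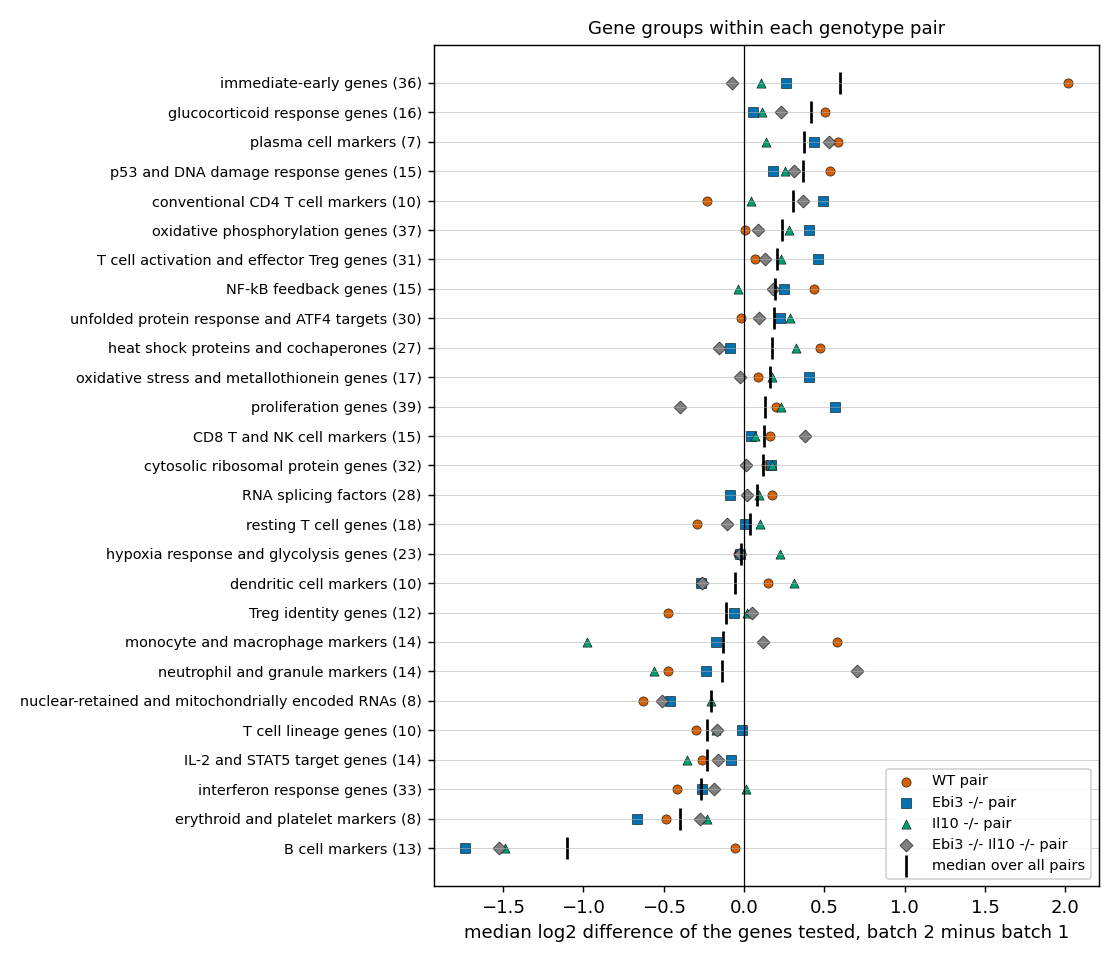
Each point is the median log2 difference, batch 2 minus batch 1, over the tested genes of a list within 1 genotype pair, and the black bar is the median of the genes' differences fitted over all pairs. Immediate-early genes stand out in the WT pair (2.02), and B cell markers lie near -1.5 in the knockout pairs and near 0 in the WT pair.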

How the data were processed

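Labelled RNA of 12 Treg samples was hybridised to Affymetrix mouse expression arrays with 45101 probe sets. MAS5 and Partek 6.4 appear in the submitters' processing notes without the role of each. The deposited series values are natural log values, and their scale was read from the numbers themselves: the natural log of signal + 20, with the arrays scaled to a common trimmed mean (2% left out at each end). The genome build is not given in the sources used here. The deposited values were turned into log2 of signal + 20. A probe set was tested if it exceeded the 40th percentile of its array on at least 3 arrays. Limma 3.58.1 in R 4.3.3 fitted batch and genotype over all 12 arrays (eBayes with trend), with Benjamini-Hochberg adjustment and a threshold of 0.05, and the script was tested on simulated data. Control ratios were compared by exact two-sided permutation tests (SciPy 1.17.1, Python 3.11.15). Gene names came from the platform annotation, with 34945 probe sets of 1 symbol, and each gene was represented by its probe set with the highest mean log2 level. The number of arrays limits the precision.

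Genes were named by rule: the 15 largest rises and 15 largest falls among called probe sets of 1 symbol, 1 per gene by smallest p, with the same sign in 4 pairs and a mean signal of at least 100 in the higher batch, up to 6 called members each way of the immediate-early, NF-kB, activation, stress and metabolic lists, up to 3 members of smallest difference per list, and Ebi3, Il10, Foxp3, Actb and Gapdh. Of the members of smallest difference only Tnfrsf4 and Tnfrsf9 are described. That choice was made after their values were seen: Dusp2, Egr3, Jund, Relb, Nfkbie, Bcl3, Gzmb, Ahsa1, Hsph1, Hsf2, Tpi1, Hk1 and Adm were left out because the sign of each turned under at least one alternative. The signs of Tnfrsf4 and Tnfrsf9 turned too, after quantile normalization, so this reason does not set them apart. Gapdh is given through its control probe sets. Members and lists were chosen with earlier results of these data known. Alternatives were quantile normalization, median centring, an added 100, other filters, 8 arrays only, no genotype term, and leaving out each array or genotype pair.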

Additional observations from a re-analysis of the deposited data

Results flagged for a closer look

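In each batch the value of 1 array was compared with those of the other 3, over 56 list means, 22 control ratios and 374 named probe sets, and 56 of 452 lay far from the rest by Dixon's test. Chance gives about 1 in 20 groups of 4 arrays, but some of these probe sets were named after their values were seen, so the shares cannot be compared. Over all genes the share was 4.25% on the WT array of batch 1 and 0.928 to 1.63% on each other array. These shares count single arrays, not groups of 4, and so are not on the scale of 1 in 20 groups. Most of the 56 are the WT array of batch 1. Its mean log2 level was low for immediate-early genes (10.36), NF-kB feedback genes (11.28), p53 targets (9.10) and RNA splicing factors (12.54), and high for Treg identity genes (12.87). Among immediate-early genes its signal was low for Klf4 (229), Fosl2 (143), Gadd45b (899), Tiparp (719 and, by the second probe set, 174), Rgs2 (2378), Dusp5 (1158), Fosb (159), Atf3 (60.8), Cd69 (2825), Maff (49.8), Fos (12085), Egr1 (3924), Jun (1964), Junb (2305), Btg2 (2471) and Zfp36 (4557). It was also low for Ctla4 (9630.1), the chaperone gene Dnajb9 (1913), the kinase gene Sgk1 (794), Cd28 (4552), Bhlhe40 (606), Fem1c (774), Cxcl2 (151), Mmd (981) and Siah2 (107), and for the B cell and antigen presentation genes Cd22 (543), Blk (198) and H2-DMb2 (222). It was high for Tnfrsf18 (7809), Ccng1 (9016), Uqcrc2 (10139) and the brightest probe set of Smchd1 (5411).

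Other arrays stood apart less often. In batch 2 the Ebi3 -/- array was high for the ratio of the added transcript thr (6.24), for Sod2 (7021), Mt2 (196) and Tsc22d3 (8278), and low for RNA splicing factors (12.65) and the brightest probe set of Sys1 (1796). The Il10 -/- array of batch 2 was high for Irf7 (998) and Uqcrfs1 (10052) and low for Cux1 (77.3). The double knockout array of batch 2 was high for glucocorticoid response genes (10.32) and for the bioB ratio (0.25), and the WT array of batch 2 was low for the phe ratio (4.37) and for Gmnn (2438). In batch 1 the double knockout array was low for Edem1 (2441) and Egln1 (1819.7) and high for Hk2 (551), and the Ebi3 -/- array was low for Sod1 (12868) and high for Rgs14 (2898).

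For 3 immediate-early genes the WT pair and the knockout pairs went opposite ways, each by at least 0.5 on the log2 scale. By its brighter probe set Jun differed by 1.86 in the WT pair and by -1.22, -0.92 and -0.91 in the Ebi3 -/-, Il10 -/- and double knockout pairs. Its dimmer probe set was called higher over all pairs. Junb differed by 1.18 in the WT pair and by -1.01, -1.19 and -1.18 in the knockout pairs. Sik1 differed by 0.50 in the WT pair and by -1.18, -1.21 and -1.41 in the knockout pairs. With 1 pair per genotype the difference was not tested.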

How the results depend on the processing

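Scaling and single libraries changed counts more than filters did. Quantile normalization gave 3693 probe sets lower in batch 2 and 6 immediate-early members higher. Median centring gave 6867 probe sets higher and 2547 lower in batch 2, 8199 higher and 3108 lower in batch 3 than in batch 1, 22 immediate-early members higher and 0 lower, and a heat shock median of 0.53. Of immediate-early members 1 was lower with no filter and 0 with no genotype term. The differences of 1.90 for beta-actin and 2.19 for GAPDH passed without the pairing (exact permutation p = 0.0286). Leaving out 1 array or 1 genotype pair gave 1635 to 2868 probe sets higher and 3537 to 5727 lower in batch 2, with the lowest counts without the Ebi3 -/- pair. It gave 1923 to 3391 higher and 3801 to 5990 lower in batch 3 than in batch 1, and 2234 to 3856 higher and 1960 to 3690 lower in batch 3 than in batch 2. Immediate-early members higher ranged over 5 to 12, lowest without the WT array of batch 2, and members lower over 0 to 7, highest without the WT array of batch 1. Directions turned for Actb (-0.16), Foxp3 (-0.097), Tnfrsf4 (-0.12) and Tnfrsf9 (-0.036) after quantile normalization, and for Socs3 (0.0093), Jun (0.062), Gas5 (0.16) and Cd2 (0.097) under median centring. With arrays or pairs left out the differences ranged over -0.037 to 0.093 for Actb, -0.018 to 0.25 for Foxp3, -0.0096 to 0.30 for Tnfrsf9, -0.067 to 1.49 for Fosb, -0.27 to 1.30 for Atf3, -0.54 to 1.16 for Maff, -0.083 to 0.53 for Egr1, -1.02 to 0.022 for Jun and -0.68 to 1.08 for Hspa1a. Of these, Fosb, Atf3, Maff, Egr1 and Hspa1a turned only where the WT array of batch 1 was left out. The brightest probe sets of Gna13 (-0.050) and Nr2c2 (-0.086) turned after quantile normalization, and those of Ankrd11 (0.23), Peli1 (0.36) and Smchd1 (0.33) under median centring. With arrays or pairs left out they ranged over -0.027 to 0.17 for Nr2c2, -0.071 to 0.045 for Peli1 and -0.12 to 0.033 for Smchd1. The cause was not tested. Of 188 named probe sets 25 lost their call without the WT pair, 46 without the Ebi3 -/- pair, 27 without the Il10 -/- pair and 31 without the double knockout pair, each with fewer arrays, and 30 lost it after quantile normalization and 30 under median centring. An added constant of 100 turned no direction and lost no call among the named probe sets. By replicate number, no paired analysis was possible because the numbers equal the batches compared. The pairing used throughout is by genotype. Batch is confounded with whatever the arrays of a batch share, and these cannot be told apart. Dim probe sets limit folds, since values near the added constant of 20 are compressed.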

Other observations

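Some markers of effector lymphocytes passed in batch 2, and they were named after their values were seen. Ifng, the signature cytokine of type 1 T cells and NK cells, read 1667, 1869.5, 3589 and 4640.4 in batch 2, against 307, 1896, 2513 and 1672 in batch 1 (1.08 ± 0.30 SE, adjusted p = 0.0164, and 0.65, adjusted p = 0.0472 without the WT pair). Il2, the T cell growth factor, read 80.3, 291, 147 and 187 in batch 2, against 47.2, 70.5, 92.1 and 157 in batch 1 (0.79 ± 0.28 SE, adjusted p = 0.0472, and 0.86, adjusted p = 0.0597 without the WT pair). The inhibitory receptor gene Klrc1 (1.16, adjusted p = 0.0172) and Ccl5, which encodes a chemokine (0.63, adjusted p = 0.00296), rose, while the CD8 chain gene Cd8a (-0.83, adjusted p = 0.0247) and the activating receptor gene Klrk1 (-0.92, adjusted p = 0.0185) fell. Dpp4, the surface peptidase CD26 of conventional T cells, read 1053, 665, 848 and 979 in batch 2, against 1434, 1433, 1254 and 1299 in batch 1, and fell by 0.62 (adjusted p = 0.0061). Of 8 erythroid and platelet markers 0 rose and 1 fell (12.5%, against 12.5% of all genes), the platelet chemokine gene Ppbp (-0.75, adjusted p = 0.0303). Cd8a (-0.49, adjusted p = 0.141), Klrk1 (-0.68, adjusted p = 0.0839) and Ppbp (-0.61, adjusted p = 0.125) did not pass without the WT pair either.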
